A study of Mus musculus with 24 samples.

Results

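The CC chemokines Ccl2, Ccl7, Ccl8, Ccl11, Ccl5, Ccl9, Ccl20 and Ccl25 were followed through oxidative DNA damage, bisphenol A (BPA) exposure and both together in mouse embryonic fibroblasts that lack Ku70. The members were the probes whose gene name in the array annotation was one of these 8 symbols or an older synonym of it. They comprised 12 of the 41174 probes other than controls, out of 18444 protein-coding genes with a probe. Where a gene had several probes, the one with the highest mean level over all 24 arrays stands for it.

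The cells were immortalized Ku70-/- fibroblasts, which lack a protein of the non-homologous end joining pathway that binds DNA ends, and every group, controls included, carried that genotype. RNA was hybridized to 1-color Agilent mouse arrays in 2 sets, with 3 replicates in each of 8 groups, described as independent experiments. In the first set, untreated cells labelled 4 hr were compared with cells given 20 mM KBrO3, an oxidizing agent, for 1 hr, and with cells given KBrO3 together with 150 μM BPA (co-exposure), both harvested 4 hr and 24 hr post-damage induction. Co-exposed cells received BPA for 1 hr beforehand and again during repair. In the second set, untreated cells with no time label were compared with cells given 150 μM BPA only, labelled 4 hr and 24 hr. No control was labelled 24 hr, so a 24 hr difference compares treated cells with untreated cells of another, or no, labelled time.

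Levels are log2 signals relative to the 75th percentile of their own array, so that 0 is that percentile and 1 unit is a doubling. All 12 probes were tested in both sets. The first set had 57.7 to 68.1% of spots well above background and a typical residual SD of 0.106. For the second set these were 76.4 to 79.4% and 0.318. These SDs cannot be compared as precision, since replicates were placed differently on slides. All KBrO3-only 4 hr arrays shared a slide, as did all co-exposure 4 hr arrays, so their spread leaves out slide differences. The second-set control and BPA-only 24 hr replicates each lay on separate slides. The estimated correlation within slides was 0.634 for first-set arrays and 0.115 for second-set arrays. First-set SEs and p-values from fits that leave the slide out can therefore be too small. The sets also differed in slides, scan and version of the image software, and in the first set every treated group but KBrO3 only at 4 hr lay on slides without a control array. For those groups a difference from control cannot be told apart from a difference between slides. The probe for Xrcc6, the Ku70 gene, was well above background on 24 of 24 arrays; where it lies relative to the deleted part was not given in the sources used here, so it does not check the genotype. Of 10 fibroblast markers, 9 were well above background on every array and Thy1 on 19. Markers of other cell types were mixed. Of 10 macrophage markers 3 (Cd68, Cd14 and Lyz2) were well above background on all 24 arrays, 5 on some and 2 (Ptprc, the pan-leukocyte marker, and Mrc1) on none. Of 6 T cell markers Cd3e, Cd5 and Lck were on all 24 and the other 3 on some, and of 5 endothelial markers Kdr and Tek were on all 24, Cdh5 on some, and Pecam1 and Tie1 on none. Of 6 epithelial markers Krt14 and Krt5, and of 4 neutrophil markers S100a8, were on all 24, and the others on some.

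CC chemokines are small secreted proteins that bind G protein-coupled receptors and draw leukocytes towards their source. Stromal cells such as fibroblasts release them when inflammatory signalling, much of it through the transcription factor NF-kB, is switched on. Ccl2, Ccl7 and Ccl8 are monocyte chemoattractants, Ccl11 (eotaxin) attracts eosinophils, Ccl5 (RANTES) T cells and monocytes, Ccl9 binds Ccr1, Ccl20 binds Ccr6 on dendritic cells and lymphocytes, and Ccl25 binds Ccr9 on thymocytes and gut-homing T cells. In the mouse genome Ccl2, Ccl7, Ccl11 and Ccl8 lie in that order in one stretch of chromosome 11, and Ccl5 and Ccl9 lie further along the same chromosome. The probes in the array annotation (build mm7) reach from chr11:82118723-82118782 for Ccl2, through chr11:82128729-82128788 for Ccl7 and chr11:82144145-82144204 for Ccl11, to chr11:82198181-82198240 for Ccl8. Ccl5 was read at chr11:83595850-83595905 or chr11:83595699-83595758, where its 2 probes lie, and Ccl9 at chr11:83644626-83644685. Ccl20 was read at chr1:83327742-83327801 and Ccl25 at chr8:4325884-4325943.

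Most of the chemokines read far lower in the untreated cells of the second set than in those of the first set. Ccl2 read 7.83, 7.84 and 7.81 on the 3 first-set control arrays and 2.82, 3.03 and 2.40 on the 3 of the second set. Ccl5 read 7.58, 7.50 and 7.58 against 3.25, 3.78 and 3.11. In neither gene did the control groups overlap. Ccl7 read 5.36, 5.31 and 5.26 against 0.30, 1.49 and 0.11, and Ccl20 1.81, 1.93 and 1.76 against −2.16, −2.12 and −3.06, again without overlap. Second-set replicate 2 was the highest of its group for both Ccl7 and Ccl5.

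In 1 fit of all 24 arrays the second-set control was lower by 33.8-fold for Ccl2 (−5.08 ± 0.14, log2 difference ± SE, adjusted p = 6.84e−15), 25.6-fold for Ccl7 (adjusted p = 2.44e−11), 19.4-fold for Ccl20 (adjusted p = 1.93e−09) and 18.1-fold for Ccl5 (adjusted p = 4.15e−13). Ccl11 was not well above background on any second-set control array and was at least 6.93-fold lower, with group means of −9.23 and −4.83 and adjusted p = 5.59e−09. Ccl9 was 2.97-fold lower and Ccl25 1.83-fold lower, with adjusted p of 3.76e−05 and 0.00234. Ccl8 was 1.54-fold lower with overlapping arrays and adjusted p = 0.0427, a call that was lost when any of 9 single arrays was left out, most clearly without second-set control replicate 2 (adjusted p = 0.302). A gene was called altered where the adjusted p was below 0.05 and the fold beyond 1.5. By that rule 8 of 8 members, each by its brightest probe, were lower in the second-set control, beside 34.1% of all probes tested in both sets altered in either direction. Under normexp 6 of 8 were, without Ccl8 and Ccl11 (−1.26, adjusted p = 0.345), and Ccl8 was also lost with quantile normalization and array weights. For Ccl25 the call rests on 1 of 3 probes, since the other two differed by 0.15 and 0.33 (adjusted p = 0.412 and 0.185) with overlapping arrays. The median difference was −4.23 for the members and −0.05 for all probes. The fit of all 24 arrays pools the spread of both sets, so its SEs and p-values can be too small for second-set groups. Levels across sets rest on arrays that were scaled separately, and cells, set, slide, scan and software cannot be told apart.

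**Figure D1:**
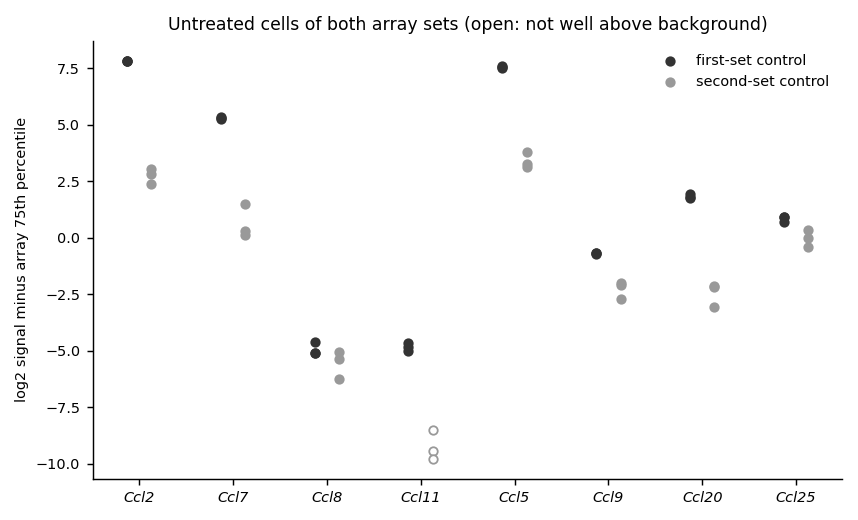
Log2 signal minus the array's 75th percentile (vertical axis) of the 8 CC chemokines (horizontal axis) in untreated cells, 1 point per array, 3 arrays per set; open points were not well above background. First-set controls (dark) lie above second-set controls (gray) without overlap for every gene but Ccl8.

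At 4 hr Ccl2, Ccl7 and Ccl20 were higher after all 3 treatments. Altered members after KBrO3 only were Ccl2, Ccl7, Ccl20 and Ccl25, 4 higher and 0 lower, beside 45.5% of all probes altered in either direction. The same 4 genes were higher after co-exposure, beside 54.4% of all probes. After BPA only, Ccl2, Ccl7, Ccl11, Ccl5, Ccl9 and Ccl20 were higher, 6 of 8 with 0 lower, beside 4.24% of all probes. That count was 3 to 6 when single arrays were left out and 3 under normexp, another background correction, so the number of members does not rank the treatments. The first-set shares of members thus stand beside backgrounds of about the same size, and the BPA-only share beside a far smaller one. Medians over the 8 members were 0.34, 0.75 and 2.30 for KBrO3 only, co-exposure and BPA only, beside 0.06, 0.08 and −0.03 for all probes.

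At 24 hr the 2 sets went apart. After KBrO3 only, 7 of 8 members were lower and 0 higher, all but Ccl25, beside 33.2% of all probes altered. After co-exposure 6 were lower and 0 higher, all but Ccl8 and Ccl25, beside 39.4% of all probes. After BPA only, Ccl2, Ccl7, Ccl5 and Ccl20 were higher and 0 were lower, beside 3.4% of all probes. Medians over the members were −1.42, −1.59 and 1.22, beside −0.02, −0.07 and −0.01 for all probes. The stricter rule of the study, a Bonferroni-adjusted p below 0.01 with the same fold, left 2, 4 and 2 of the members at 4 hr after KBrO3 only, co-exposure and BPA only, beside 28.8%, 32.6% and 0.066% of all probes. The 24 hr counts were 5, 6 and 0, beside 16.8%, 20.8% and 0.0189%.

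**Figure D2:**
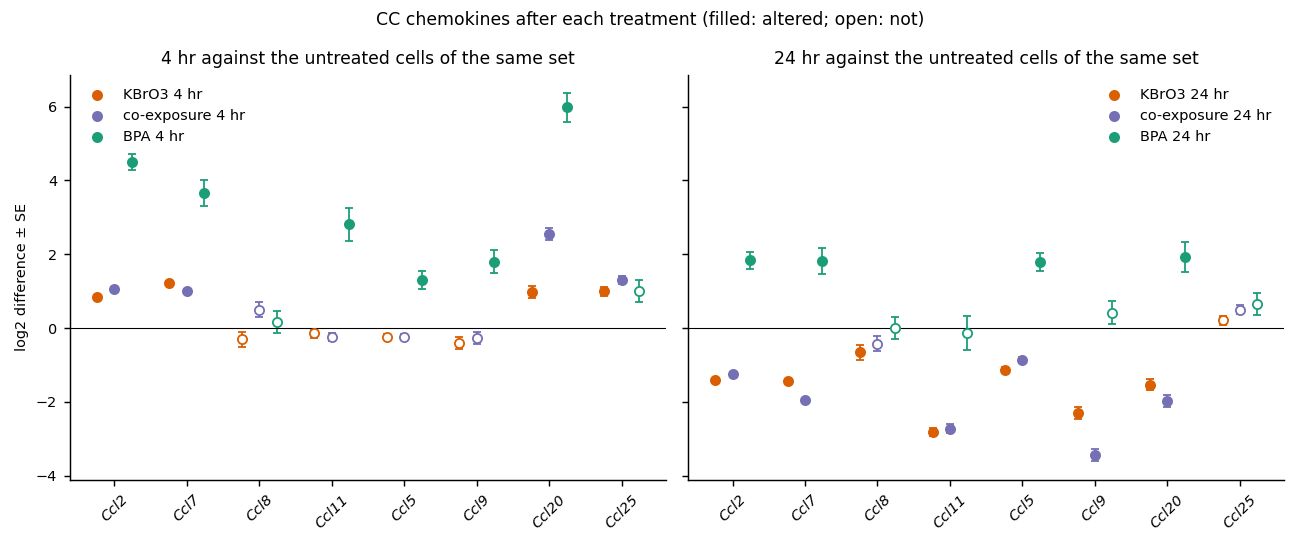
Log2 difference from the untreated cells of the same set (vertical axis, bars are SE from the fit, 3 arrays per group) for each CC chemokine at 4 hr (left) and 24 hr (right) after KBrO3 only, co-exposure or BPA only; filled points were altered. Ccl2, Ccl7 and Ccl20 lie above 0 after all treatments at 4 hr; at 24 hr they lie below 0 after KBrO3 only and co-exposure and above 0 after BPA only.

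Ccl2, the main attractant of Ccr2-bearing monocytes, was bright on every array, and its probe was spotted 10 times. After KBrO3 only it read 8.67, 8.60 and 8.70 at 4 hr and 6.36, 6.44 and 6.46 at 24 hr. After co-exposure it read 8.90, 8.97 and 8.81 at 4 hr and 6.66, 6.58 and 6.54 at 24 hr. All 4 hr arrays lay above the first-set controls and all 24 hr arrays below them. After BPA only it read 6.96, 7.39 and 7.39 at 4 hr and 4.75, 4.54 and 4.45 at 24 hr, and all of these arrays lay above their own controls but below the untreated cells of the first set.

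Against control, Ccl2 rose 1.78-fold after KBrO3 only at 4 hr (0.83 ± 0.051, adjusted p = 1.52e−08) and 2.09-fold after co-exposure (1.07 ± 0.051, adjusted p = 1.25e−09). It was then 2.65-fold lower at 24 hr after KBrO3 only (adjusted p = 3.12e−10) and 2.35-fold lower after co-exposure (adjusted p = 6.24e−10). The KBrO3-only rise at 4 hr came to 0.46 with quantile normalization, under the 1.5-fold limit. On the 1 slide that held a control and the 3 KBrO3-only 4 hr arrays it was 0.85. After BPA only, Ccl2 rose 22.6-fold at 4 hr (4.50 ± 0.23, adjusted p = 0.000107) and was 3.56-fold higher at 24 hr (1.83 ± 0.23, adjusted p = 0.00519). Within slides of the second set the difference was 4.36 at 4 hr (2 arrays against 1) and 1.72 and 2.14 at 24 hr (1 against 1 on each of 2 slides). With the slide as a fixed block the adjusted p was 0.154 at 4 hr and 0.0839 at 24 hr, in a fit that called 0 of all probes.

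Ccl7, encoded next to Ccl2 and a ligand of Ccr2 and other receptors, was high at 4 hr and low at 24 hr in the first set. After KBrO3 only it read 6.57, 6.54 and 6.51 at 4 hr and 3.83, 3.92 and 3.89 at 24 hr, and after co-exposure 6.35, 6.23 and 6.37 and 3.37, 3.39 and 3.35. The BPA-only arrays read 4.14, 4.44 and 4.32 at 4 hr and 2.77, 2.53 and 2.09 at 24 hr. No group overlapped its control, and none of the 8 groups overlapped its neighbour in the order of levels, which ran from KBrO3 only at 4 hr at the top to the second-set control at the bottom.

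Ccl7 rose 2.34-fold at 4 hr after KBrO3 only (1.23 ± 0.046, adjusted p = 1.63e−10) and 2.01-fold after co-exposure (adjusted p = 7.91e−10). By 24 hr it had dropped below control, 2.69-fold lower after KBrO3 only (adjusted p = 1.1e−10) and 3.84-fold lower after co-exposure (−1.94 ± 0.046, adjusted p = 4.59e−12). After BPA only it rose 12.7-fold at 4 hr (3.66 ± 0.35, adjusted p = 0.00113). The later BPA-only cells were 3.55-fold higher (1.83 ± 0.35, adjusted p = 0.0268), a call that was lost when any 1 of 7 of the 9 second-set arrays was left out (adjusted p 0.0503 to 0.0867). The second Ccl7 probe gave the same call as this one in 11 of 11 comparisons within sets.

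Ccl20, the Ccr6 ligand, showed the widest range among the members that were well above background on every array. It read 2.82, 2.83 and 2.78 at 4 hr after KBrO3 only, and 4.42, 4.29 and 4.45 after co-exposure. The 24 hr levels were 0.50, 0.30 and 0.08 after KBrO3 only and −0.40, −0.30 and 0.27 after co-exposure. Both 4 hr groups lay above the first-set controls, co-exposure above KBrO3 only, and both 24 hr groups lay below the controls and overlapped each other. After BPA only it read 3.31, 3.79 and 3.49 at 4 hr and 0.28, −0.64 and −1.21 at 24 hr. The 4 hr BPA-only arrays exceeded the untreated cells of the first set, a difference between sets that was not tested.

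Ccl20 rose 1.97-fold after KBrO3 only at 4 hr (0.97 ± 0.15, adjusted p = 8.25e−05) and 5.85-fold after co-exposure (2.55 ± 0.15, adjusted p = 9.12e−09). At 24 hr it was 2.91-fold and 3.94-fold lower, with adjusted p of 2.09e−06 and 1.72e−07. After BPA only at 4 hr it was 62.95-fold higher (5.98 ± 0.39, adjusted p = 0.000193), the largest fold of any member in a comparison with control. Within 1 second-set slide that difference was 5.56, and with the slide as a fixed block its adjusted p was 0.133. The 24 hr BPA-only cells were 3.8-fold higher (1.93 ± 0.39, adjusted p = 0.0332). That call was lost when any 1 of 8 of the 9 second-set arrays was left out (adjusted p 0.0573 to 0.089), while the within-slide differences were 2.41 and 2.42.

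Promoter sequence was at hand for 4 of the 8 members (RefSeq, GRCm38.p6, the 250 bases before the gene start), Ccl20, Ccl9, Ccl8 and Ccl25. The windows of Ccl20 and Ccl9 are printed because these genes rose at 4 hr with BPA only and because both hold the letters of an NF-kB site, here in capitals with the other motifs found. Ccl20 is on the plus strand, chr1:83116516-83116765, and Ccl9 on the minus strand, chr11:83578637-83578886.
Ccl20: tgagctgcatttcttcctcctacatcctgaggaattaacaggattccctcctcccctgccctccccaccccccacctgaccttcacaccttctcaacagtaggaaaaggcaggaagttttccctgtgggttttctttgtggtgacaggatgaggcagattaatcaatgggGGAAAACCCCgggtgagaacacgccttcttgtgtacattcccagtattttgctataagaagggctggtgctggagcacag
Ccl9: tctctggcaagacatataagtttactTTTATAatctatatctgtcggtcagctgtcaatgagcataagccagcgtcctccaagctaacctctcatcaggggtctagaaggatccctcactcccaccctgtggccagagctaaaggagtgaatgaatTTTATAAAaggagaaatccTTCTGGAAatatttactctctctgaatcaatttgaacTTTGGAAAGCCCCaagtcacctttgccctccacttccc
In Ccl20 the letters GGAAAACCCC, 80 to 71 bases before the start, hold the NF-kB site on the opposite strand. In Ccl9 the letters GGAAAGCCCC do so 35 to 26 bases before the start, overlapping one of 2 matches to a C/EBP site (TTNNGNAA). The overlapping C/EBP match lies at 38 to 31. The other capitals in Ccl9 mark the second C/EBP match, at 75 to 68, and 3 TATAAA matches, a pair of which overlap. NF-kB letters occurred in 3.9% of 32851 windows, C/EBP letters in 36.8% and TATAAA in 12.4%. The windows of Ccl8 and Ccl25 held no NF-kB letters; Ccl8 held TATAAA 32 to 27 bases before its start, and 1 of the 2 Ccl25 windows held TATAAA. No window of a member held the letters of an AP-1 site (TGACTCA or TGAGTCA, in 4.46% of windows), CRE (TGACGTCA, in 1.55%), antioxidant response element (TGACNNNGC, in 10.2%) or interferon-sensitive response element (in 2.98%). Both strands were searched, and a match of letters is a description, not a measured binding site.

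Ccl5, which attracts T cells and monocytes, was lower at 24 hr in the first set and higher at both times in the second. It read 7.37, 7.30 and 7.30 at 4 hr after KBrO3 only and 7.32, 7.36 and 7.26 after co-exposure, just below the first-set controls and overlapping each other. At 24 hr it read 6.33, 6.42 and 6.53 after KBrO3 only and 6.81, 6.78 and 6.50 after co-exposure, lower still. The BPA-only levels were 4.36, 4.83 and 4.86 at 4 hr and 5.27, 5.24 and 4.996 at 24 hr. All BPA-only arrays lay above their controls, and the 24 hr arrays lay above the 4 hr ones.

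The 4 hr differences of Ccl5 in the first set, −0.23 and −0.24, stayed within 1.5-fold and were not altered. At 24 hr it was 2.19-fold lower after KBrO3 only (−1.13 ± 0.077, adjusted p = 7.8e−08) and 1.82-fold lower after co-exposure (−0.86 ± 0.077, adjusted p = 7.31e−07). The latter came to −0.54 both when arrays were scaled to their median and under normexp, and to −0.58 with quantile normalization, each within 1.5-fold. After BPA only it was 2.47-fold higher at 4 hr (1.30 ± 0.24, adjusted p = 0.0181) and 3.45-fold higher at 24 hr (1.79 ± 0.24, adjusted p = 0.0068). The 4 hr call was lost without any 1 of second-set control replicates 1 and 3 and BPA 4 hr replicates 2 and 3 (adjusted p 0.0503 to 0.103). Within slides the BPA-only differences were 1.36 at 4 hr and 1.49 and 2.12 at 24 hr.

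Ccl9, a Ccr1 ligand, changed most at 24 hr in the first set. The first-set controls read −0.70, −0.69 and −0.69, the KBrO3-only arrays −2.75, −3.09 and −3.17 at 24 hr and the co-exposed arrays −3.68, −4.51 and −4.24. These 3 groups did not overlap, and the co-exposed cells were lowest. In the second set the controls read −2.08, −1.99 and −2.73 and the BPA-only arrays −0.34, −0.73 and −0.34 at 4 hr and −1.995, −2.31 and −1.26 at 24 hr, with overlap of the controls at 24 hr. Ccl9 was 4.94-fold lower after KBrO3 only (−2.30 ± 0.17, adjusted p = 1.27e−07) and 10.9-fold lower after co-exposure (−3.45 ± 0.17, adjusted p = 2.36e−09). It was 3.48-fold higher after BPA only at 4 hr (1.80 ± 0.31, adjusted p = 0.015), a call that was lost without second-set control replicate 3 or BPA 4 hr replicate 1 or 3 (adjusted p 0.0541 to 0.08). At 24 hr its difference with BPA only was 0.41 and was not altered. The 4 hr differences in the first set, −0.40 and −0.27, were within 1.5-fold.

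Ccl11 and Ccl8 were dim. Ccl11 was well above background on 12 of 24 arrays, namely the controls and both 4 hr groups of the first set and the BPA-only 4 hr arrays. It was at least 1.71-fold lower than control at 24 hr after KBrO3 only (group means −7.66 and −4.83, adjusted p = 6.46e−10) and in co-exposed cells at least 1.35-fold lower (adjusted p = 5.64e−10). With BPA only at 4 hr it read −7.12, −6.07 and −6.07 and was at least 2.3-fold higher than control (adjusted p = 0.0114), a call lost without BPA 4 hr replicate 2 or 3 (adjusted p 0.0579 and 0.0638). Each bound sets the brighter group against the dimmest signal well above background on each dim array, or against the gene's own reading there where that was higher. With normexp the BPA-only difference was 0.21 with an adjusted p of 1.

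Ccl8 was well above background on 16 of 24 arrays, with 1 of 3 after KBrO3 only at 24 hr and 0 of 3 both after KBrO3 only at 4 hr and after co-exposure at 24 hr. It spanned −5.11 to −4.60 in the first-set controls and −5.97 to −5.04 after KBrO3 only at 24 hr, which overlap. It was 1.58-fold lower there (−0.66 ± 0.20, adjusted p = 0.0122), and the call was lost without first-set control replicate 3 or KBrO3 24 hr replicate 2 or 3 (log2 difference −0.57 to −0.48). It was also lost with quantile normalization (−0.43), median scaling (−0.51), array weights (adjusted p = 0.0766) and only the compared groups (adjusted p = 0.0903). Its other differences from control were not altered: 0.49, 0.15 and 0.005 for co-exposure at 4 hr and BPA only at 4 and 24 hr, with no size given for the groups at background. The co-exposure 4 hr difference passed the limits without first-set control replicate 3 (0.66, adjusted p = 0.0134). With the slide as a fixed block Ccl8 was called lower after KBrO3 only at 4 hr (adjusted p = 5.18e−04), a group in which no array measured it well above background.

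Ccl25, a thymic and intestinal chemokine, was altered against control at 4 hr in the first set. It read 0.91, 0.92 and 0.72 in controls, 1.88, 1.82 and 1.82 after KBrO3 only and 2.14, 2.11 and 2.20 after co-exposure, with no overlap. It rose 1.99-fold (adjusted p = 8.68e−06) and 2.46-fold (adjusted p = 6.24e−07). At 24 hr the differences were 0.21 and 0.50 and were not altered, although the latter was altered without co-exposure 24 hr replicate 3 (0.66), with median scaling (0.82) and under normexp (0.63). After BPA only it spanned 0.57 to 1.55 at 4 hr and 0.42 to 0.74 at 24 hr against −0.42 to 0.36 in controls, with differences of 1.01 (adjusted p = 0.101) and 0.64 (adjusted p = 0.291) that were not altered. In the fit of all 24 arrays both were (adjusted p = 0.00185 and 0.0374). The 3 Ccl25 probes gave 1 call in 4 of 11 comparisons within sets. Another probe, annotated across chr8:4320170-4323618, was higher than control in all 4 first-set groups, by 0.90 to 2.08 in log2 units, and a probe for another transcript, at chr8:4299246-4299305, was lower after KBrO3 only at 4 hr (−0.66, adjusted p = 0.0178). The calls of Ccl25 thus depend on the probe and, after BPA only, on the arrays in the fit.

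**Figure D3:**
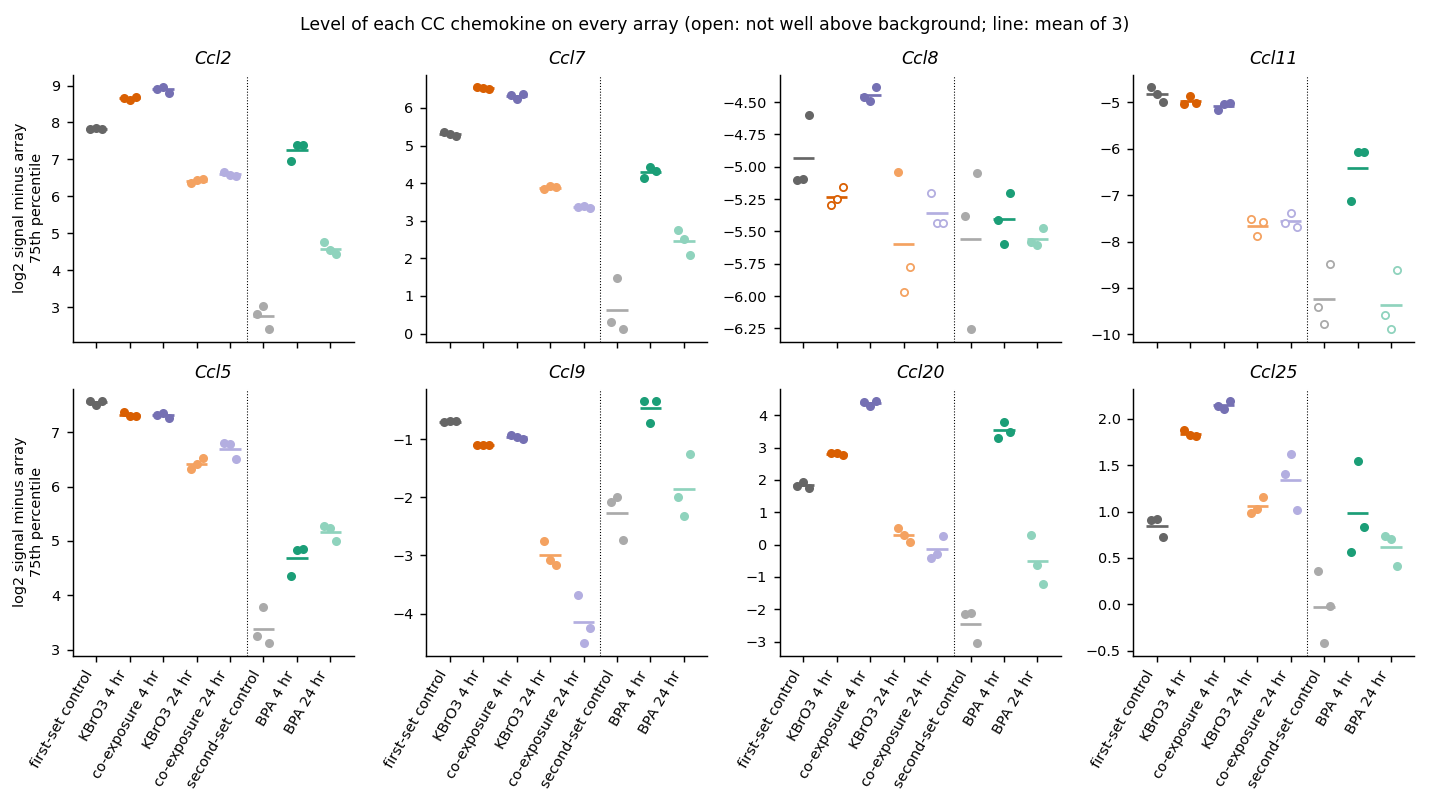
Log2 signal minus the array's 75th percentile (vertical axis, scaled per gene) of each CC chemokine on all 24 arrays, by group (horizontal axis); lines are means of 3 arrays, the dotted line separates the sets, and open points were not well above background. Ccl2, Ccl7 and Ccl20 are high at 4 hr and low at 24 hr in the first set, and lowest in the second-set controls.

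The comparison of co-exposure with KBrO3 only asked what BPA added to oxidative damage. At 4 hr the groups share no slide, so co-exposure and slide cannot be told apart. There 2 of 8 members, each by its brightest probe, were higher with BPA and 0 lower, beside 20.1% of all probes. Ccl20 was 2.98-fold higher (1.57 ± 0.15, adjusted p = 5.32e−06, or 1.498 and 0.000128 with the slide as a random block). Ccl8 was called higher with a bound of at least 1.71-fold (adjusted p = 0.00569), but not with the slide as a random block (adjusted p = 0.0966). Under normexp the Ccl8 difference was 0.25 (adjusted p = 0.906), which is below that bound. Ccl2 differed by 0.23 and Ccl7 by −0.22, both past the p threshold (adjusted p = 0.00222 and 0.00163) and within 1.5-fold. The brightest Ccl25 probe differed by 0.31 (adjusted p = 0.0451), within 1.5-fold. Its other probes were called higher, by 2.03-fold and 1.88-fold (adjusted p = 4.81e−08 and 0.00409). At 24 hr, 1 member was altered, beside 13.6% of all probes: Ccl9 was 2.21-fold lower with BPA (−1.15 ± 0.17, adjusted p = 0.000131). On the slide that held 2 arrays of each group this difference was −0.97, and under normexp it was −0.55, within 1.5-fold. Ccl7 was 1.43-fold lower (adjusted p = 2.72e−06), under the limit, and Ccl20 passed it only without co-exposure 24 hr replicate 3 (−0.65).

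For most members the log2 difference that BPA made was smaller or more negative in KBrO3-exposed cells than in cells given BPA only. Each effect was taken within its own set, BPA added minus KBrO3 only in the first and BPA only minus control in the second, and the difference between these effects was tested over all 24 arrays. That fit pools the spread of both sets, so its SEs and p-values can be too small. For Ccl2 at 4 hr its SE was 0.19, against 0.23 for the BPA-only effect alone. The difference between effects at 4 hr was −4.27 for Ccl2 (adjusted p = 1.32e−10), −4.40 for Ccl20 (adjusted p = 7.1e−07) and −3.88 for Ccl7 (adjusted p = 2.93e−07). Ccl11, Ccl9 and Ccl5 also passed, which makes 6 of 8 members, beside 15.9% of all probes. For Ccl11 the size is not known, since it was well above background on 0 of 3 second-set control arrays. At 24 hr 5 members passed, Ccl2, Ccl7, Ccl5, Ccl9 and Ccl20, beside 4.38% of all probes, with differences of −1.66, −2.34, −1.52, −1.56 and −2.36. First-set effects start from KBrO3-only cells and second-set effects from untreated cells. Mean levels of Ccl2, Ccl7, Ccl20 and Ccl5 in KBrO3-only cells were 8.66, 6.54, 2.81 and 7.32 at 4 hr. At 24 hr they were 6.42, 3.88, 0.29 and 6.42, and in second-set controls 2.75, 0.63, −2.45 and 3.38. Untreated cells of the sets differed by 18.1- to 33.8-fold for these genes. The part of the starting levels in these differences was not tested.

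**Figure D4:**
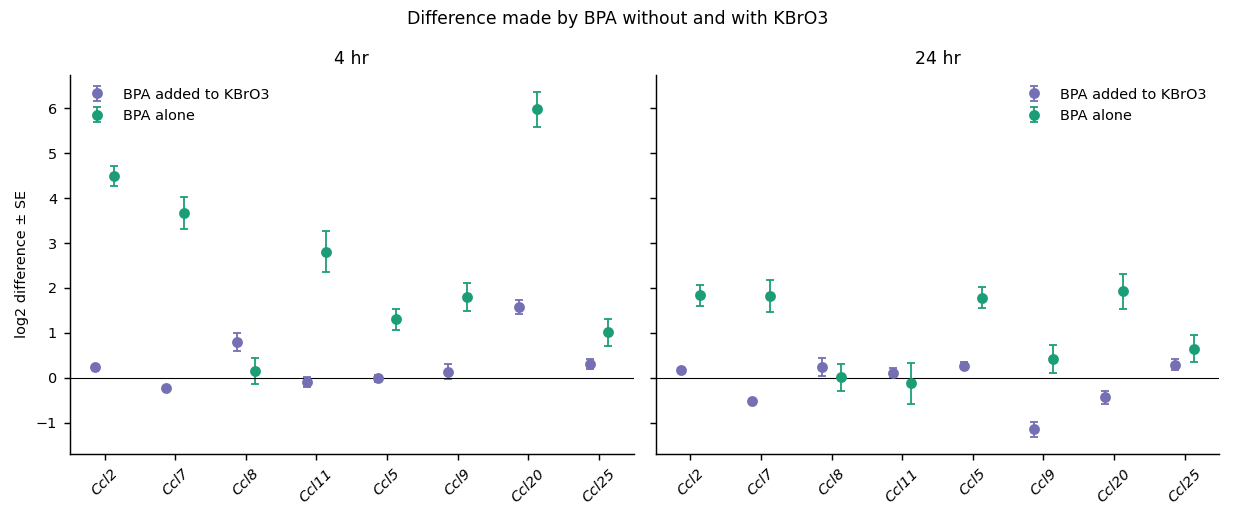
Log2 difference made by BPA (vertical axis, bars are SE, 3 arrays per group) for each CC chemokine at 4 hr (left) and 24 hr (right), in cells also given KBrO3 (purple, against KBrO3 only) and in cells given BPA only (green, against second-set control). At 4 hr the BPA-only values of Ccl2, Ccl7 and Ccl20 lie between 3.66 and 5.98, and the values with KBrO3 between −0.22 and 1.57.

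From 4 to 24 hr most of the chemokines fell in every treatment. After KBrO3 only 7 of 8 members were lower at 24 hr, all but Ccl8, beside 47.8% of all probes altered, with Ccl7 lower by 6.31-fold and Ccl20 by 5.72-fold (adjusted p = 4.55e−13 and 1.4e−08). For Ccl25 only the brightest probe was lower. Its probe at chr8:4299246-4299305 was higher (1.12, adjusted p = 0.000564), and the one across chr8:4320170-4323618 differed by −0.04 (adjusted p = 0.496). With quantile normalization Ccl5 came to −0.14 there and was not altered, and after co-exposure Ccl5 and Ccl8 came to −0.07 and −0.21. After co-exposure 8 of 8 were lower, beside 55.6% of all probes. Ccl20 was lower there by 23.1-fold and Ccl9 by 9.08-fold, with adjusted p of 6.26e−11 and 3.1e−09. Median scaling moved the median of all probes in this comparison by 0.46 and left 5 members altered, with Ccl5, Ccl8 and Ccl25 at −0.16, −0.45 and −0.34. Ccl8 was at −0.04 with the slide as a fixed block, and Ccl5 at −0.52 without co-exposure 24 hr replicate 3. Ccl11 was at background on every first-set 24 hr array, with bounds of at least 1.54-fold lower after KBrO3 only and 1.14-fold lower after co-exposure. Neither call held under normexp (adjusted p = 0.106 and 0.111). Ccl8 was not well above background on any co-exposed 24 hr array, so its values here are fitted ones and not measured sizes. After KBrO3 only Ccl8 was also called without KBrO3 24 hr replicate 1, when no array of either group was well above background. After BPA only 5 were lower at 24 hr, beside 3.79% of all probes: Ccl2 by 6.35-fold, Ccl7 by 3.57-fold, Ccl9 by 2.61-fold, Ccl20 by 16.6-fold and Ccl11 by at least 2.33-fold. Without BPA 4 hr replicate 2 or 3 only Ccl2 and Ccl20 remained altered. The call of Ccl9 was lost without any 1 of 7 of the 9 arrays (adjusted p 0.0529 to 0.159), and that of Ccl7 without any BPA 4 hr array or BPA 24 hr replicate 2 or 3 (adjusted p 0.066 to 0.102). Ccl5 differed by 0.48 (adjusted p = 0.295). Among the members well above background at both times, the largest fall was that of Ccl20 after co-exposure and BPA only, and that of Ccl7 (−2.66) after KBrO3 only.

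Other CC ligands were read from a list of 14, of which 11 had a probe and 7 were tested in each set. At 4 hr 4 were higher and 1 lower after KBrO3 only, and the same after co-exposure, while 1 was higher after BPA only, where 45.5%, 54.4% and 4.24% of all probes were altered. Their medians were 1.06, 1.63 and 0.36, beside 0.06, 0.08 and −0.03 for all probes. Ccl4 rose 19.5-fold after KBrO3 only (adjusted p = 3.51e−13), 24.7-fold after co-exposure (adjusted p = 1.47e−13) and 5.78-fold after BPA only (adjusted p = 0.00253). Ccl4 was still 4.29-fold higher than control at 24 hr after co-exposure (adjusted p = 1.74e−10), where Ccl2, Ccl7 and Ccl20 were lower. Ccl27a, a skin chemokine, was 2.38-fold lower after KBrO3 only at 4 hr (adjusted p = 1.16e−10). Ccl28 and Ccl12 were called higher after KBrO3 only at 4 hr with neither group well above background, so no fold is given. Ccl17 after co-exposure at 4 hr was 4.47-fold higher (adjusted p = 2.31e−09) and Ccl12 at least 1.47-fold higher, but under normexp their differences, and that of Ccl28 after KBrO3 only, changed sign. At 24 hr Ccl6 was 2.64-fold lower after BPA only (adjusted p = 0.0495). It was also called lower after KBrO3 only and co-exposure, but was well above background there on 1 of 3 and 0 of 3 arrays, and on 1 of 3 first-set control arrays, so no fold is given. Ccl19 was 2.44-fold lower after KBrO3 only (adjusted p = 0.000575) and 2.83-fold lower after co-exposure (adjusted p = 0.000156).

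Receptors of these ligands were unevenly detected. Of 14 CC receptor genes with a probe, Ccr1, Ccr2, Ccr7 and Ccr10 were well above background on 0 of 24 arrays, Ccr6, the receptor of Ccl20, and Ccrl2 on all 24, and the other 8 on some. Of 6 tested in the first set, 1 was higher and 1 lower after KBrO3 only at 4 hr, and 4 were higher after co-exposure, with medians of 0.205 and 0.88. For all probes tested there, 45.5% and 54.4% were altered and the medians were 0.06 and 0.08. Ccrl2, an atypical receptor, was 7.71-fold higher after BPA only at 4 hr (adjusted p = 0.000446), and Ackr2, which scavenges inflammatory CC chemokines, 2.09-fold higher (adjusted p = 0.0345). After co-exposure at 4 hr Ackr2 differed by 1.55 (well above background on 1 of 3 control arrays), Ccr6 by 0.89, and Ccr9, the receptor of Ccl25, was at least 3.21-fold higher. All were altered, but each turned negative under normexp. Of 8 receptors tested in the second set Ccrl2 and Ackr2 were higher and 0 lower at 4 hr after BPA only, with a median of −0.03, beside 4.24% of all probes altered and the same rounded median.

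Regulators of NF-kB were higher or not altered after BPA only, and went both ways in the first set. Of 15 tested in the second set, 8 were higher and 0 lower at 4 hr after BPA only, with a median of 1.54, beside 4.24% of all probes altered and a median of −0.03. They include the inhibitor Tnfaip3 (A20, 7.73-fold higher, adjusted p = 0.000752), the nuclear cofactor Nfkbiz (8.63-fold higher, adjusted p = 0.000557) and Bcl3 (6.36-fold higher, adjusted p = 0.00034). At 24 hr only Bcl3 was altered (2.97-fold higher, adjusted p = 0.00519), beside 3.4% of all probes. Of 14 tested in the first set, 5 were higher and 4 lower at 4 hr after both KBrO3 only and co-exposure, where 45.5% and 54.4% of all probes were altered. There Nfkbiz rose 2.3-fold after KBrO3 only, while Bcl3 was 3.9-fold lower and the inhibitor Nfkbie 3.36-fold lower, with adjusted p of 1.23e−08, 1.25e−09 and 1.17e−11. Medians of these regulators were 0.29 after KBrO3 only and 0.46 after co-exposure. At 24 hr 1 was higher and 4 lower after KBrO3 only, and 2 were higher and 6 lower after co-exposure, beside 33.2% and 39.4% of all probes altered.

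Inflammatory genes outside the CC family were read from a list of 15 genes for cytokines, CXC chemokines, acute-phase proteins, adhesion molecules and the cyclooxygenase Ptgs2, 12 of them tested. After BPA only 12 of 12 were higher at 4 hr, with a median of 3.42, beside 4.24% of all probes altered and a median of −0.03. Il6, the fever and acute-phase cytokine, was 50.6-fold higher (adjusted p = 0.000152), and Cxcl2, which draws neutrophils, at least 47.5-fold higher (adjusted p = 3.35e−05). Of the 12, 5 were still higher at 24 hr, when 3.4% of all probes were altered, with Saa3, an acute-phase protein, 25.4-fold higher (adjusted p = 0.00126). After KBrO3 only 7 were higher and 2 lower at 4 hr, led by Ptgs2, the inducible cyclooxygenase (67.7-fold higher, adjusted p = 7.86e−15), and after co-exposure 8 were higher and 1 lower, beside 45.5% and 54.4% of all probes altered. At 24 hr 1 was higher and 8 lower after KBrO3 only, and 2 were higher and 9 lower after co-exposure, beside 33.2% and 39.4% of all probes altered, with Saa3 13.1-fold and 17.6-fold lower. The untreated cells of the sets differed here too, with Il6 at a level of 0.39 among first-set controls and −4.95 among second-set controls.

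The genes whose course over the 24 arrays was most like that of each chemokine included members of that inflammatory list. After each level was set against its own set's control mean, Il6 had the highest Pearson r among 14007 genes with Ccl2 (0.986), Ccl7 (0.978) and Ccl20 (0.97). Cxcl1 followed for Ccl7 (0.976), Runx1 for Ccl2 (0.959) and Irf1 for Ccl20 (0.963). The acute-phase genes Lcn2 and Saa3 were near Ccl5 (0.971 and 0.966), after Frmd5 (0.972). Ackr3, an atypical receptor, was nearest to Ccl9 (0.983), Man1a to Ccl11 (0.96) and Prelid3b to Ccl25 (0.939). For the dim Ccl8 the highest r was 0.839. These correlations describe arrays that share groups, slides and scaling and carry no test.

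Mean levels of the marker lists differed between groups, and neither the lists nor their single genes were tested. The mean level of the 10 fibroblast markers, which include the dim Thy1, was 5.92 to 6.00 in first-set controls, 5.66 to 5.72 after KBrO3 only and 5.42 to 5.45 after co-exposure at 4 hr, 4.42 to 4.53 after KBrO3 only at 24 hr and 3.97 to 4.06 after co-exposure at 24 hr. In the second set it was 4.9 to 5.04 in controls, 4.86 to 4.96 after BPA only at 4 hr and 4.6 to 4.7 at 24 hr. The mean over 10 macrophage markers lay between −5.75 and −4.48 on all 24 arrays, with −5.39 to −4.66 in first-set controls, −4.69 to −4.48 after KBrO3 only and −4.68 to −4.51 after co-exposure at 4 hr, −5.26 to −4.85 and −5.25 to −5.09 at 24 hr, −5.73 to −5.17 in second-set controls and −5.35 to −5.27 after BPA only at 4 hr. The 4 neutrophil markers had a mean of −5.52 to −4.69 in first-set controls, −4.6 to −4.54 after KBrO3 only and −4.5 to −4.17 after co-exposure at 4 hr, −5.87 to −5.5 and −5.54 to −5.24 at 24 hr, and −6.25 to −5.33 over the second set. Endothelial markers had means of −6.46 to −6.07 in first-set controls and −5.8 to −5.71 and −5.69 to −5.54 in the 4 hr groups, and T cell markers −5.19 to −4.51 in those controls and −4.68 to −4.27 and −4.22 to −4.15 in the 4 hr groups. The part of these marker lists in the chemokine differences was not tested, and in RNA from whole cultures fewer cells of a type and less RNA per cell cannot be told apart.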

How the data were processed

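RNA from 24 cultures was hybridized to 24 1-color Cy3 arrays of 1 Agilent whole mouse genome design. The deposited intensity of each spot is the signal that the authors' Feature Extraction software background-subtracted and detrended (version 9.5.3.1 in the first set, 12.0.0.7 in the second). Series-table values equalled the scanner values (1080432 of 1080432). Precision is limited by 3 arrays per group. Here, log2 intensities minus each array's 75th percentile over non-control spots were averaged per probe, and limma (3.58.1, R 4.3.3; lmFit, eBayes, two-sided) was fitted to all groups of a set, with Benjamini-Hochberg adjustment over the 27310 and 31810 probes that, in 1 group or more of the set, were well above background throughout. Contrasts between sets used 24 arrays and 27180 probes.

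Members and gene lists were chosen with earlier results of these data known. Genes named from a list were the altered ones with the largest difference, at most 3 per list and comparison with control; Ccl12 after KBrO3 only and the control levels of Il6 were named after their values were seen. The scripts were tested on simulated data. The normexp alternative used mean signals in the first set and median signals in the second. BPA-only times are those of the labels; by the study's methods the BPA itself was present for 1 hr longer. Alternatives were other scaling, background correction and filters, slide and replicate blocks, array weights, arrays of the compared groups only, all 24 arrays in 1 fit, and each array left out in turn.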

Additional observations from a re-analysis of the deposited data

Results flagged for a closer look

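The difference that BPA made differed between the sets by a test of the difference itself for 6 members at 4 hr and 5 at 24 hr. The Bonferroni rule left 3 and 1 of them. For the controls it left 5 of 8 members. Values are the log2 effect of BPA added to KBrO3 minus the log2 effect of BPA only, so a negative value means a smaller or more negative effect beside KBrO3. At 4 hr it was −4.27 for Ccl2, −3.88 for Ccl7, −1.31 for Ccl5 (adjusted p = 0.000411), −1.66 for Ccl9 (adjusted p = 0.00233) and −4.40 for Ccl20. For Ccl11 the fitted value was −2.90 (adjusted p = 0.000259), which is not a measured size, since no second-set control array had Ccl11 well above background. At 24 hr it was −1.66 for Ccl2 (adjusted p = 5.21e−05), −2.34 for Ccl7 (adjusted p = 0.000284), −1.52 for Ccl5 (adjusted p = 0.000278), −1.56 for Ccl9 (adjusted p = 0.0098) and −2.36 for Ccl20 (adjusted p = 0.0017).

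The effects came from separate array sets whose untreated cells began at different levels, and set and starting level cannot be told apart from the presence of KBrO3. In Ccl9 at 24 hr the effect beside KBrO3 was −1.15 and the BPA-only effect 0.41. Under normexp the differences of Ccl11, Ccl5 and Ccl9 at 4 hr were −0.25, −1.30 and −1.16, and those of Ccl9 and Ccl20 at 24 hr −0.59 and −1.69, none past the threshold. The 4 hr difference of Ccl25 passed without second-set control replicate 1 or BPA 4 hr replicate 1 (−0.90 and −0.91), and that of Ccl8 without second-set control replicate 2, with Ccl8 at background on all KBrO3-only 4 hr arrays.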

How the results depend on the processing

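Of 1183 member values recomputed under settings other than leaving out an array, 1108 kept their side of the threshold, 68 lost it and 7 gained it, and 0 that were altered in either setting changed sign. The Bonferroni rule left 2, 2 and 0 members altered for KBrO3 only at 4 hr and BPA only at 4 and 24 hr, 1 and 0 for co-exposure against KBrO3 only at 4 and 24 hr, and 5 and 0 for 24 against 4 hr of co-exposure and BPA only. Under normexp the members altered were 3 and 0 for BPA only at 4 and 24 hr, where it called 16 and 0 of all 31810 probes and put Ccl2, Ccl7, Ccl5 and Ccl20 at 1.98, 1.85, 1.88 and 1.34 at 24 hr, 1 and 0 for co-exposure against KBrO3 only, 0 for BPA only at 24 against 4 hr (0 of all probes), and 3 and 3 for the differences between BPA effects. With the slide as a fixed block they were 0 in the 3 second-set comparisons, as for all probes there. Fitting only the compared groups left 2 at 24 hr of BPA only; requiring signal on every array, or the slide as a random block, each left 1 for co-exposure against KBrO3 only at 4 hr. Quantile normalization gave 2 for that comparison at 24 hr, and median scaling 5 for co-exposure at 24 against 4 hr. Altered values of genes from the lists that changed sign, all under normexp, which moved the median of all probes by up to −0.53, were Ackr2 (−0.85) and Ccl28 (−0.98) after KBrO3 only at 4 hr, Ccr9 (−0.56), Ackr2 (−0.60), Ccr6 (−0.60), Ccl12 (−0.84) and Ccl17 (−0.019) after co-exposure at 4 hr, and Ccrl2 (−0.67) after co-exposure at 24 hr; the cause was not tested. Leaving out arrays gave 3 to 6 members for BPA only at 4 hr, 2 to 4 at 24 hr and 2 to 5 between those times, 6 to 7 for KBrO3 only and for co-exposure at 24 hr, 4 to 4 and 4 to 5 at 4 hr, 2 to 2 and 1 to 2 for co-exposure against KBrO3 only, 7 to 8 for KBrO3 only and co-exposure over time and for the controls, and 6 to 7 and 5 to 5 for the differences between BPA effects. Same-numbered replicates did not deviate together consistently (r −0.21 to 0.10 over first-set pairs, −0.47 to 0.71 over second-set pairs); the replicate block changed 1 call of a member, Ccl9 in BPA only at 24 against 4 hr (adjusted p = 0.089, leaving 4 members), and called 677 of all probes for BPA only at 4 hr against 1349, and 529 against 1082 at 24 hr. Signal near background limits Ccl8 and Ccl11.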
